A study of Sus scrofa with 3 samples.

Results

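The liver of the Enshi black pig, a domestic breed, was compared by small RNA sequencing with the livers of the Large White pig and the Chinese wild boar, and the microRNAs (miRNAs) that lay on the same side of both were described. Each group was 1 library from male pigs at postnatal day 90. The labels name no treatment and no genotype beyond the breed. They speak of 3 male pigs and 3 liver samples, and whether a library came from 1 animal or from pooled animals is not stated there. A miRNA counted as a member where its Enshi black value was at least 1.5-fold above, or at least 1.5-fold below, the value in each of the other two libraries, with both exact 95% intervals leaving out 1. Of 208 miRNAs with a mean of at least 10 counts per 1000000 (CPM), 10 were members, 5 higher and 5 lower. The members were chosen on the measured ratios themselves, so their ratios are descriptions and no test was made. With 1 library per breed, a difference between breeds cannot be told apart from a difference between individual animals or library preparations.

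miRNAs are short RNAs that guide Argonaute proteins to messenger RNAs and lower their translation and stability. The 2 arms of a hairpin precursor, 5p and 3p, can each give a mature miRNA, and a block of bases near the 5′ end, the seed, sets most of the targeting. In liver, hepatocytes are known for miR-122, which acts in cholesterol and lipid metabolism, and for miR-192 and miR-194. The endothelium carries miR-126, smooth muscle and stellate cells miR-143, miR-145, miR-199a and miR-214, and blood-forming cells miR-142, miR-150 and miR-155.

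The libraries held 7730934 (Enshi black), 7343033 (Large White) and 7824836 (wild boar) counts after repeated entries were left out. miR-122 alone took 34.2%, 41.4% and 39.5% of the counts in the same order. The Enshi black library was the least concentrated of the 3. Its 10 most abundant miRNAs took 66.5% of its counts, against 76.1% in Large White and 70.1% in wild boar, and 35 miRNAs made up 90% of its counts against 25 and 31. The 10 were miR-122, miR-101, miR-26a, miR-21, miR-192, miR-194a, let-7a, miR-29a, miR-143-3p and miR-199a-5p. Unless another scale is named, values below are CPM scaled by TMM (the trimmed mean of M-values), which takes most miRNAs as equal between libraries. The median log2 ratio of the 208 miRNAs was −0.04 over Large White and −0.01 over wild boar on the TMM scale. It was 0.60 and 0.15 when counts were divided by the library total, and 0.43 and 0.03 when that total left out miR-122.

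Few miRNAs set the Enshi black library apart from both others. Against Large White alone, Enshi black was at least 1.5-fold higher for 31 of the 208 (14.9%) and at least 1.5-fold lower for 41 (19.7%). Against wild boar alone, 29 (13.9%) were higher and 24 (11.5%) lower. Both pairs share the Enshi black library, so the pairs are not independent of each other. On the same side of both were the 5 higher members miR-146b, miR-708-5p, miR-628, miR-363 and miR-10a-5p, and the 5 lower members miR-184, miR-874, miR-6782-3p, miR-1285 and miR-574. At 2-fold, 6 miRNAs (2.88%) were higher and 21 (10.1%) lower than in Large White, and 13 (6.25%) were higher and 13 (6.25%) lower than in wild boar. miR-146b was then the 1 miRNA higher than both, and miR-184, miR-874 and miR-6782-3p were lower than both.

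**Figure D1:**
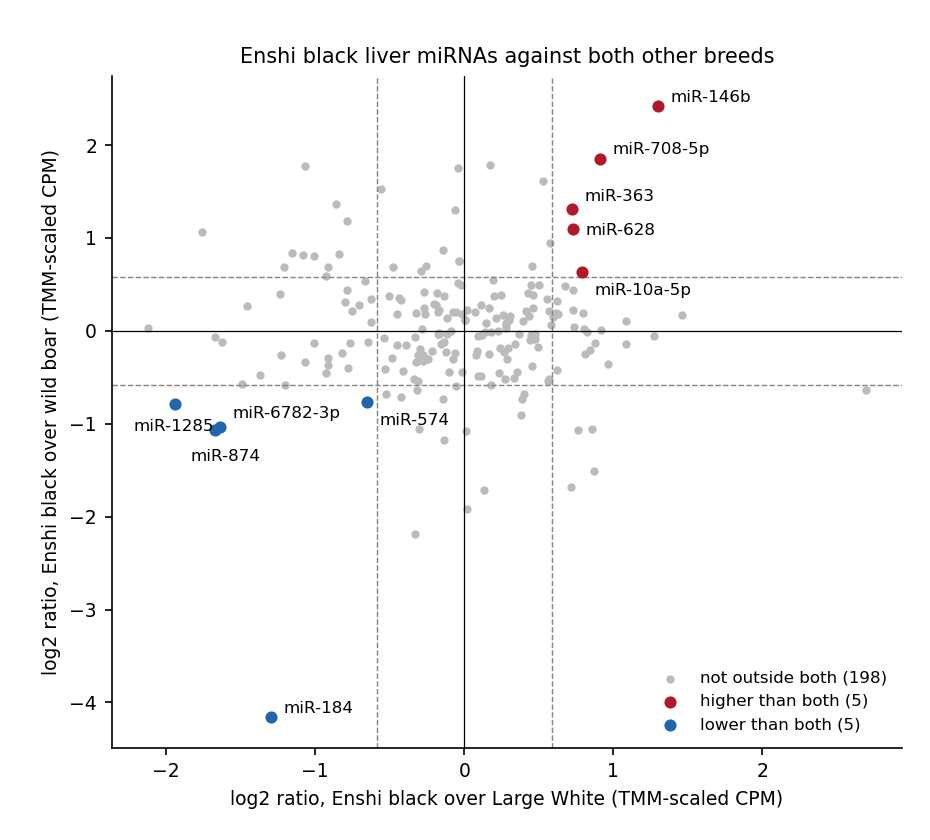
Each point is 1 of 208 miRNAs, with Enshi black over Large White on the x axis and over wild boar on the y axis, both as log2 ratios of TMM-scaled CPM and sharing the Enshi black library. Dashed lines mark 1.5-fold, and the 5 red and 5 blue points in the upper right and lower left corners are the members.

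The same rule picked 54 miRNAs with Large White outside both others (26.0%) and 41 with wild boar outside both (19.7%), against the 10 for Enshi black (4.81%). Enshi black lay between the other two libraries for 98 miRNAs (47.1%), Large White for 41 (19.7%) and wild boar for 69 (33.2%). On library totals the numbers between were 83 for Enshi black, 32 for Large White and 93 for wild boar, so wild boar was then the library most often between. The scaling also moved the counts outside both. With DESeq2 size factors, the numbers outside both were 11 for Enshi black, 49 for Large White and 40 for wild boar. On library totals they were 22, 82 and 33, and on totals without miR-122 they were 13, 76 and 37. At 1.5-fold Enshi black thus had the smallest of the 3 counts under each of the 4 scalings, a difference between libraries that was not tested. The split of its own members into higher and lower did change, from 5 and 5 to 7 and 4 with DESeq2 size factors, 19 and 3 on library totals, and 9 and 4 on totals without miR-122.

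**Figure D2:**
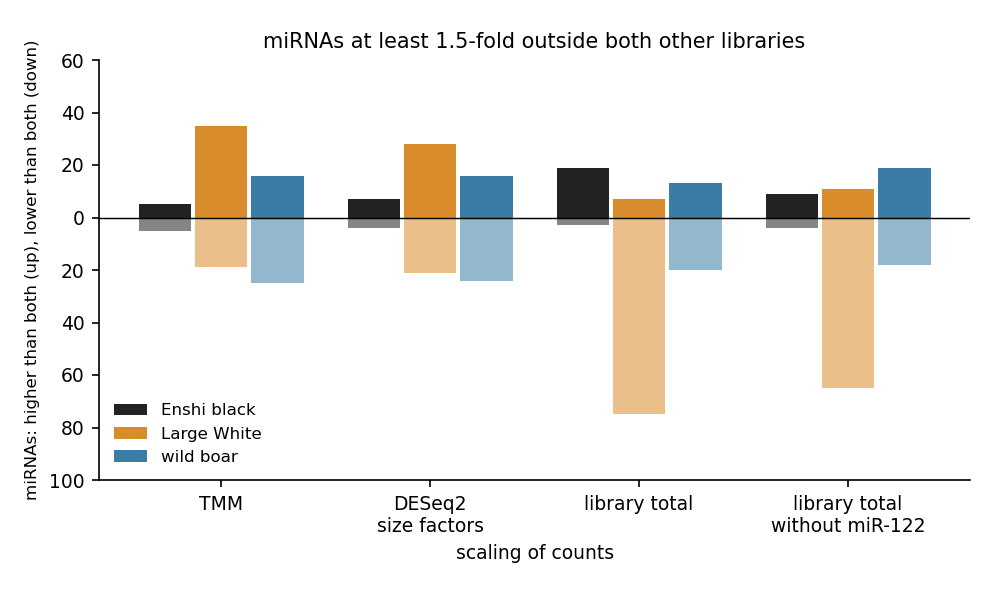
Bars give the number of the 208 miRNAs at least 1.5-fold higher (upward) or lower (downward) in 1 library than in both others, for each library under 4 scalings of the counts. Up and down together, the Enshi black bars sum to 10, 11, 22 and 13, the smallest sum of the 3 libraries under each scaling, although on library totals its upward bar is the tallest.

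miR-146b stood furthest above both other libraries. It is a miRNA induced by inflammatory signalling that dampens the innate immune response. Its level was 152 CPM in Enshi black, 61.7 CPM in Large White and 28.5 CPM in wild boar, from 1414, 350 and 240 counts. The Enshi black value was the highest by a wide margin, and the other two libraries also differed, with Large White 2.17-fold above wild boar. Enshi black was 2.47-fold above Large White (interval 2.19 to 2.78) and 5.35-fold above wild boar (4.66 to 6.16). Its close relative miR-146a-5p, which acts on the same signalling, did not share this order, with 169 CPM in Enshi black, 177 CPM in Large White and 68.8 CPM in wild boar. The deposited miR-146b counts of Large White and wild boar were not whole, so at least some reads there were divided between names, while the Enshi black count was whole.

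Of the markers of blood-forming cells, 4 of the 5 listed were used (miR-223 was not analysed here). Their summed level was 10708 CPM in Enshi black, 20629 CPM in Large White and 3582 CPM in wild boar. miR-142-3p was at 8054 CPM in Enshi black, 16873 CPM in Large White and 2346 CPM in wild boar, so Enshi black lay between the others. miR-142-5p and miR-155-5p also lay between, though on library totals both were highest in Enshi black. miR-150, a lymphocyte miRNA, was the 1 marker of the 4 that was highest in Enshi black on the TMM scale, at 314 CPM against 278 and 91.0 CPM. Of the 10 tested miRNAs in the wider leucocyte list, 4 were highest in Enshi black on the TMM scale (miR-146b, miR-150, miR-139-5p and miR-181b). Of the others, 5 lay between and miR-342 was lowest. Over all 208 miRNAs, 25.0% were highest and 47.1% between on that scale. The intervals placed 3 of the 10 above both, without miR-139-5p, which was near level with wild boar (225 against 224 CPM). On library totals 8 of the 10 were highest, where 52.9% of all 208 miRNAs were. The part of leucocyte content in the miR-146b value was not tested.

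miR-708-5p was the second furthest above both. It lies within TENM4, a teneurin gene, in the RefSeq annotation of Sscrofa11.1, from which the host genes here are taken, and is known as a miRNA induced by stress of the endoplasmic reticulum. Its level was 63.1 CPM in Enshi black, 33.5 CPM in Large White and 17.4 CPM in wild boar. Enshi black was 1.88-fold above Large White (1.60 to 2.23) and 3.62-fold above wild boar (3.01 to 4.36). The other arm of the precursor, miR-708-3p, was below the expression minimum, with 16, 7 and 6 counts in Enshi black, Large White and wild boar. The Enshi black value was the highest on that scarce arm too, but both its intervals took in 1.

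miR-363 comes from a cluster on the X chromosome that is a paralog of the growth-promoting miR-17-92 cluster. It stood at 156 CPM in Enshi black, 94.7 CPM in Large White and 63.1 CPM in wild boar. Enshi black was 1.65-fold above Large White (1.49 to 1.82) and 2.48-fold above wild boar (2.24 to 2.74). The count was divided evenly over the 2 precursors named in the files, so the precursors cannot be told apart. In the RefSeq annotation of Sscrofa11.1, precursors of miR-106a, miR-18b, miR-19b, miR-20b and miR-92a lie within 10 kb of that of miR-363.

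On the TMM scale 3 of those 5 neighbours were also highest in Enshi black, against 25.0% of the 208 tested miRNAs. Of the 3, miR-20b alone is among those 208. miR-20b was at 21.1 CPM in Enshi black, 14.6 CPM in Large White and 6.88 CPM in wild boar, 1.44-fold from the nearer library and so just short of the rule. miR-18b had 33, 8 and 18 counts in the same order and miR-106a 47, 26 and 17 counts, both below the expression minimum. The interval of miR-18b over wild boar and that of miR-106a over Large White took in 1. miR-19b and miR-92a lay between the other libraries, though on library totals miR-19b was highest in Enshi black. Both also come from a second precursor elsewhere. miR-19b was at 6562 CPM in Enshi black, 9308 CPM in Large White and 5066 CPM in wild boar, and miR-92a at 5258, 4166 and 7451 CPM.

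Of the red cell list, which miR-363 is also on, the defining markers did not follow it. miR-451 was at 3318 CPM in Enshi black, 3641 CPM in Large White and 2556 CPM in wild boar, and miR-144 at 665, 1536 and 413 CPM. Enshi black lay between the others for both, though on library totals, with or without miR-122, miR-451 was highest in it. miR-486 was at 132, 147 and 145 CPM in the same order, and its place changed with the scaling. The summed red cell markers were 4114 CPM in Enshi black, 5324 CPM in Large White and 3114 CPM in wild boar.

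miR-10a-5p was the most abundant of the higher members. It is encoded in a HOX gene cluster and in endothelium restrains inflammatory signalling. Its level was 2089.6 CPM in Enshi black, 1209 CPM in Large White and 1344 CPM in wild boar. Here the other two libraries were close, and Enshi black stood 1.73-fold above Large White (1.68 to 1.78) and 1.55-fold above wild boar (1.52 to 1.59). The other arm, miR-10a-3p, was not used to pick this member and showed the same order, at 23.3 CPM in Enshi black, 15.9 CPM in Large White and 18.4 CPM in wild boar. Its relative miR-10b was at 100.3, 47.3 and 93.2 CPM, so Enshi black and wild boar were close and Large White was lower. The miR-10a-5p counts of Enshi black and wild boar were not whole, so at least some reads were divided between names. The endothelial markers described below were also highest in Enshi black, and their part in this value was not tested.

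miR-628 was the scarcest of the higher members. It lies within CCPG1, a protein-coding gene. It stood at 15.5 CPM in Enshi black, 9.34 CPM in Large White and 7.24 CPM in wild boar, from 144, 53 and 61 counts. Enshi black was 1.66-fold above Large White (1.20 to 2.32) and 2.14-fold above wild boar (1.58 to 2.94). The lower bound against Large White lay under 1.5-fold, as did that of miR-363. miR-628 passed the expression minimum through the Enshi black library, where it is high. All 5 higher members, miR-628 and miR-363 with those limits, stayed at least 1.5-fold above both libraries under each of the 4 scalings. Each alternative to TMM raised the Enshi black ratios.

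**Figure D3:**
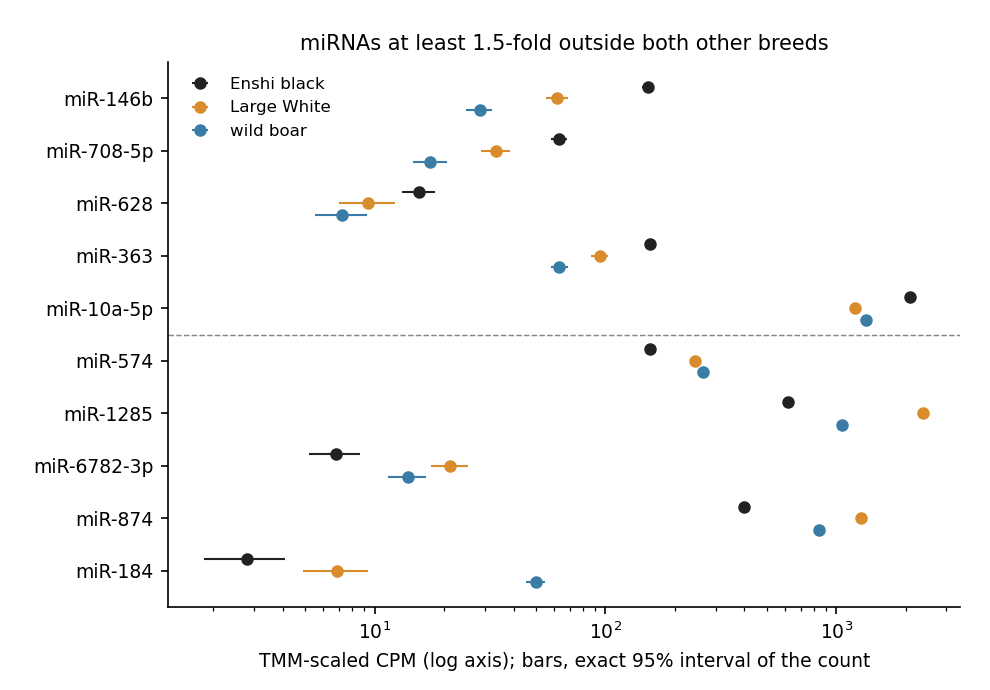
Points give the TMM-scaled CPM of the 10 members in each library on a log axis, with bars for the exact 95% interval of the count. The dashed line separates the 5 higher members, where the Enshi black point is furthest right, from the 5 lower ones, where it is furthest left.

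Among the lower members, miR-874 and miR-1285 were the most abundant. miR-874 lies within KLHL3, a gene for a ubiquitin ligase adaptor. Its level was 399.6 CPM in Enshi black, 1273 CPM in Large White and 838 CPM in wild boar. Large White was 3.19-fold above Enshi black (3.06 to 3.32) and wild boar 2.10-fold above it (2.02 to 2.18). miR-1285, which has been reported to target the p53 transcript, was at 616 CPM in Enshi black, 2365 CPM in Large White and 1063 CPM in wild boar. Large White was 3.84-fold above Enshi black (3.72 to 3.96) and wild boar 1.72-fold above it (1.67 to 1.78). For both miRNAs Large White was the highest and Enshi black the lowest, and wild boar stood nearer to Enshi black than Large White did.

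miR-6782-3p, a scarce miRNA, showed the same order at a lower level. It stood at 6.78 CPM in Enshi black, 21.2 CPM in Large White and 13.9 CPM in wild boar, from 63, 120 and 117 counts. Large White was 3.12-fold above Enshi black (2.28 to 4.30) and wild boar 2.05-fold above it (1.49 to 2.83). The lower bound against wild boar lay just under 1.5-fold. miR-874, miR-6782-3p and miR-1285 were the 3 lower members that stayed at least 1.5-fold below both libraries under all 4 scalings. On library totals the log2 ratios over Large White and wild boar were −1.03 and −0.91 for miR-874, and −1.30 and −0.63 for miR-1285. The hepatocyte markers described below were also lowest in Enshi black, and their part in these values was not tested.

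miR-184 and miR-574 met the rule less firmly. miR-184, best known from the eye and nervous tissue, had 26 counts in Enshi black, 39 in Large White and 421 in wild boar, or 2.80, 6.88 and 49.9 CPM. Its wild boar value stood apart from the other two, and it passed the expression minimum through that library. Large White was 2.46-fold above Enshi black (1.46 to 4.20) and wild boar 17.8-fold above it (12.01 to 27.6). On library totals the interval against Large White took in 1, at a log2 ratio of −0.66, and miR-184 was no longer a member. miR-204, another miRNA of eye and nervous tissue, was at 334 CPM in Enshi black, 419.8 CPM in Large White and 1516 CPM in wild boar. It too was high in wild boar and lower in both other libraries.

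miR-574 lies within FAM114A1. It was at 156 CPM in Enshi black, 245 CPM in Large White and 264 CPM in wild boar, so the other two libraries were close. Large White was 1.57-fold above Enshi black (1.46 to 1.70) and wild boar 1.70-fold above it (1.59 to 1.81). The value over Large White depended on the scaling. Its log2 ratio was −0.65 after TMM, −0.58 with DESeq2 size factors, −0.18 on totals without miR-122 and −0.02 on library totals, and of the 4 scalings it was a member under TMM alone.

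The threshold fell in a continuous range of ratios. The 2 nearest inside on the higher side were miR-10a-5p and miR-363, at 1.55-fold and 1.65-fold from the nearer library. Just outside were the hypoxia-induced miR-210 at 1.49-fold and miR-20b at 1.44-fold, and both were members under each of the other 3 scalings. On the lower side miR-574 at 1.57-fold and miR-1285 at 1.72-fold were inside. miR-32 at 1.496-fold and miR-885-5p at 1.49-fold were outside. With no fold required, the intervals alone placed 81 miRNAs (38.9%) above and 94 (45.2%) below Large White. They placed 87 (41.8%) above and 81 (38.9%) below wild boar, and 34 (16.3%) above and 43 (20.7%) below both. On library totals the intervals placed 91 above and 9 below both, and on totals without miR-122 they placed 67 above and 17 below. Without a fold, Enshi black was outside both for 100 miRNAs on library totals, more than the 92 for wild boar, so it was not the smallest there. Such small differences exceed counting error only.

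The hepatocyte markers were lowest in Enshi black. miR-122 stood at 284669 CPM in Enshi black, 536023 CPM in Large White and 366573 CPM in wild boar. miR-192 was at 28885, 67630 and 34653 CPM in the same order, miR-194a at 27997, 53342 and 38407 CPM, and the scarcer miR-885-5p at 46.3, 129.9 and 68.9 CPM. In each the order was Enshi black, wild boar, Large White. All 4 had intervals below both libraries under each of the 4 scalings, a position that 9 of the 208 miRNAs held (4.33%). The markers were chosen with earlier results of these data known, so this is a description only. None of the 4 was 1.5-fold below wild boar, the nearer library. In bulk tissue, fewer cells of a type and less RNA per cell cannot be told apart.

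The endothelial and the smooth muscle and stellate markers were highest in Enshi black. The endothelial miR-126-3p was at 14279 CPM in Enshi black, 8930.5 CPM in Large White and 10187 CPM in wild boar, and its other arm miR-126-5p at 2005, 1149 and 1982 CPM. miR-143-3p, a smooth muscle miRNA, was at 22547, 16741 and 17006 CPM, and its partner miR-145-5p at 2701, 2253 and 2408 CPM. miR-199a-5p, of stellate cells and fibroblasts, was at 16638, 12093 and 14053 CPM, and miR-214 at 576, 475 and 544 CPM. All 6 were highest in Enshi black under each of the 4 scalings, a position that 52 of the 208 miRNAs held (25.0%). The 6 are not all separate measurements, since miR-126-3p and miR-126-5p are arms of 1 precursor. These markers were chosen with earlier results of these data known, so this is a description only. The interval of miR-126-5p over wild boar took in 1 after TMM. None of the 6 reached 1.5-fold over both on the TMM scale, and miR-126-3p alone did so on library totals. Their other arms were mixed. miR-143-5p was also highest, at 52.9, 44.6 and 40.4 CPM, and miR-199a-3p was level with Large White, at 6862, 6850 and 6338 CPM. miR-145-3p lay between at 208, 254 and 133 CPM, as did the relative miR-199b-5p at 1040, 748 and 1109 CPM. The places of miR-145-3p and miR-199b-5p changed with the scaling.

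A ratio of counts within a library needs no scaling between libraries. Per 100 counts of the 4 hepatocyte markers, the 4 smooth muscle and stellate markers had 12.4 counts in Enshi black, 4.80 in Large White and 7.74 in wild boar. The 2 endothelial markers had 4.77, 1.53 and 2.77 counts in the same order. The blood-forming markers had 3.13 in Enshi black, 3.14 in Large White and 0.815 in wild boar, and the red cell markers 1.20, 0.810 and 0.708. The first 2 ratios were higher in Enshi black than in either other library by more than 1.5-fold, and the blood-forming ratio was near that of Large White. The hepatocyte sum was itself lowest in Enshi black, at 341596 CPM against 657125 CPM in Large White and 439702 CPM in wild boar. A miRNA level across the libraries would thus also give a raised ratio there. How many of the 208 miRNAs would do so by 1.5-fold was not counted. miR-429, the 1 epithelial and bile duct marker of 4 analysed here, was at 13.7, 10.4 and 12.7 CPM. The endocrine marker miR-7 was at 288 CPM in Enshi black, between 580 CPM in Large White and 165 CPM in wild boar.

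**Figure D4:**
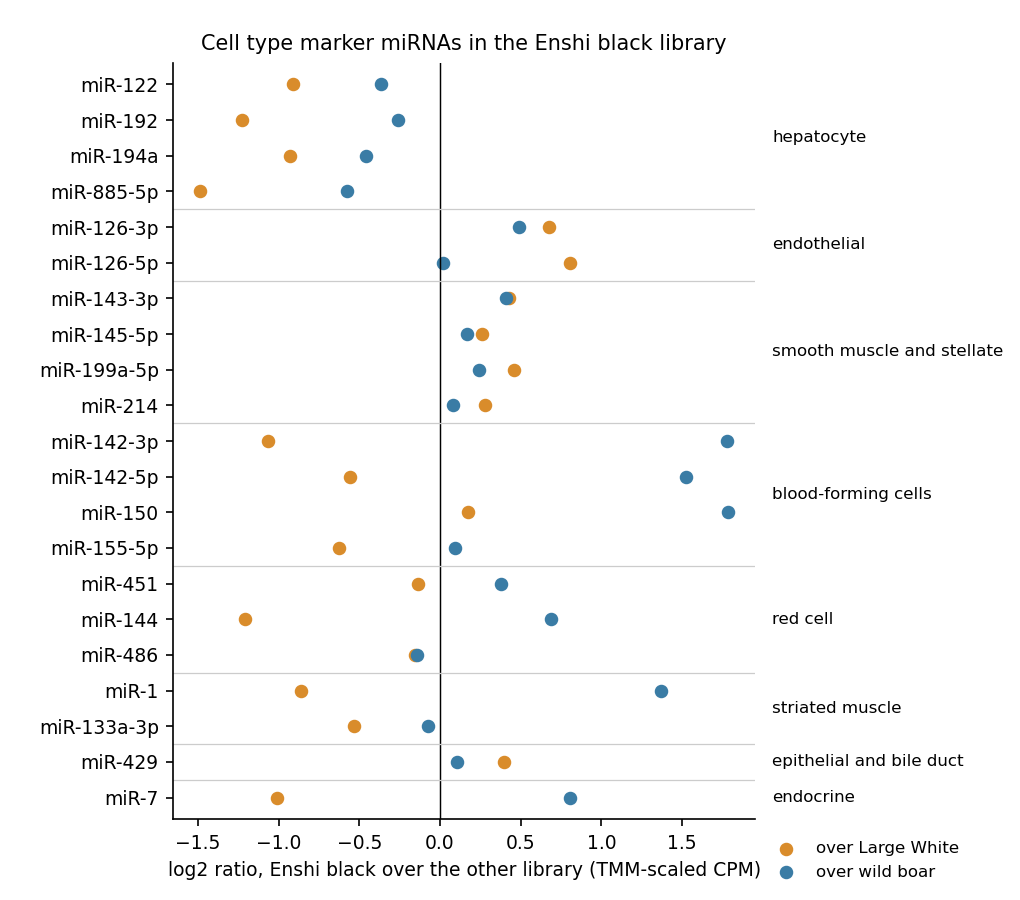
Points give, for Enshi black on the TMM scale, the log2 ratio over Large White (orange) and over wild boar (blue) for 21 cell type marker miRNAs above the expression minimum. Both points lie left of 0 for the 4 hepatocyte markers and right of 0 for the 6 endothelial, smooth muscle and stellate markers, while those of 3 of the 4 blood-forming markers lie on opposite sides.

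The wider lists of liver and endothelial miRNAs hold the markers just described, so their counts are not separate from those. Over all 208 miRNAs Enshi black was highest for 52 (25.0%), between for 98 (47.1%) and lowest for 58 (27.9%) on the TMM scale. On library totals it was highest for 110 (52.9%), between for 83 (39.9%) and lowest for 15 (7.21%). Of 11 liver-enriched miRNAs it was lowest for 7, between for 4 and highest for none, with median log2 ratios of −0.93 over Large White and −0.26 over wild boar. Of the 7 that are not hepatocyte markers, miR-101, miR-148a-3p and miR-22-3p were lowest. On library totals the 4 markers alone were lowest, and the medians were −0.29 and −0.11. miR-101, an abundant liver miRNA, was at 42525 CPM in Enshi black and 44375 CPM in wild boar, both far under the 135568 CPM in Large White. miR-22-3p, linked to glucose metabolism, was likewise at 5386, 5872 and 16631 CPM in Enshi black, wild boar and Large White. These 2 separate Large White from the others rather than Enshi black from both.

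Of the 12 miRNAs listed as endothelial, 8 were highest in Enshi black, 2 between and 2 lowest, where 25.0% of all 208 were highest. The medians were 0.60 over Large White and 0.06 over wild boar. By interval 5 of the 12 lay above both, without miR-24-3p, miR-126-5p and miR-10b, which were near level with wild boar. On library totals 8 of the 12 were also highest, against 52.9% of all 208. From which cells these 12 came was not tested. The 2 lowest were the most abundant, miR-125b at 13302 CPM against 16098 in Large White and 16673 in wild boar, and miR-99a at 12962 against 16194 and 16397 CPM. On library totals those 2 lay between. Of the 13 stellate, smooth muscle and fibrosis miRNAs, 5 were highest, 6 between and 2 lowest, with medians of 0.18 and 0.11. On library totals 10 of these 13 were highest, against 52.9% of all 208. miR-21, linked to growth and fibrosis, was at 39895 CPM in Enshi black, between 55713 CPM in Large White and 24793 CPM in wild boar. miR-29a, a collagen repressor, was at 23666, 25126.5 and 23727 CPM, nearly level across the 3.

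The lipid list shares miR-122 and miR-22-3p with the liver list, and the p53 list shares miR-192, miR-194a and miR-215 with it. Of 11 tested cholesterol, lipid and insulin miRNAs, 5 were lowest in Enshi black, 5 between and 1 highest, with medians of −0.15 over Large White and −0.22 over wild boar. The first turned to 0.49 on library totals, where 1 of the 11 was lowest. miR-26a, linked to insulin sensitivity, was at 41321 CPM in Enshi black, 48129 CPM in Large White and 47979 CPM in wild boar. Of 7 p53 and hypoxia miRNAs, 4 were lowest, 1 between and 2 highest, with medians of −0.43 and −0.26. The first was 0.21 on library totals, where 2 were lowest. The p53 target miR-34a was at 398 CPM in Enshi black, 535 CPM in Large White and 651 CPM in wild boar. miR-210, which responds to hypoxia, went the other way, at 95.7, 64.4 and 49.7 CPM.

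On the TMM scale Enshi black lay between the others for 98 of all 208 miRNAs (47.1%), and for many entries of the remaining lists. This held for 5 of 6 tested miRNAs of the imprinted DLK1-DIO3 cluster, which is active in fetal tissue, with medians of 0.79 over Large White and −0.77 over wild boar. Its member miR-127 was at 137 CPM in Enshi black, 74.8 CPM in Large White and 390.0 CPM in wild boar. It held for 5 of 8 let-7 and miR-98 miRNAs, with medians of −0.37 and 0.15. let-7a and let-7c were the 2 lowest in Enshi black, let-7a at 25016 CPM against 26858 in Large White and 34049 in wild boar. On library totals the let-7 median over Large White was 0.27, let-7a lay between and 5 of the 8 were highest, near the share of all 208 on that scale (52.9%). Of 7 tested miR-17-92 miRNAs, 5 lay between, with medians of 0.16 and 0.29, and on library totals 5 were highest, against 52.9% of all 208.

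Of 6 miR-15 and miR-16 miRNAs 3 lay between, near the 47.1% of all 208, with medians of 0.04 and 0.03. miR-16 was highest in Enshi black at 4931 CPM, against 3319 CPM in Large White and 4249 CPM in wild boar, and miR-497 was lowest at 411, 507 and 858 CPM. The leucocyte list had medians of 0.05 over Large White and 0.69 over wild boar, and the 6 red cell miRNAs −0.14 and 0.40. The first of each was 0.69 and 0.49 on library totals. Of 3 striated muscle miRNAs, 2 lay between, with medians of −0.75 and 0.21, and miR-1 was at 56.6 CPM in Enshi black, 103 CPM in Large White and 21.9 CPM in wild boar. Of 5 neural and endocrine miRNAs, 3 were lowest in Enshi black (miR-204, miR-9 and miR-184) and 2 between. Among all 208 on the TMM scale, 27.9% were lowest and 47.1% between. The medians of the 5 were −0.33 over Large White and −0.60 over wild boar. The first of these was 0.31 on library totals, where miR-184 alone was still lowest, against 7.21% of all 208.

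With at least 10 counts in Enshi black set against 0 in both others, or the reverse, the number of miRNAs was 0. It was also 0 for Large White and for wild boar. A count of 0 allows up to 3 counts, or 0.323 CPM in Enshi black, 0.529 CPM in Large White and 0.356 CPM in wild boar. Arm use set it apart little. Of 65 precursors with at least 100 counts over both arms in each library, none had an Enshi black 5p share 10 percentage points outside both others. In 34 the Enshi black share lay between the others or was level with 1 or both of them. The widest gap was for both precursors of miR-345, at 38.7% 5p in Enshi black (exact Clopper-Pearson interval 32.1 to 45.6), 48.2% in Large White (38.7 to 57.9) and 47.5% in wild boar (39.6 to 55.5), where the intervals overlap. The next were the hepatocyte precursor of miR-885 at 46.3%, 57.8% and 52.2%, miR-28 at 18.5%, 13.5% and 14.3%, and miR-17 at 76.8%, 68.4% and 73.4%. In 6 precursors, miR-28 among them, the Enshi black interval lay apart from both others. The 6 include both precursors of miR-199a, which held almost the same counts (109228 and 109073 in Enshi black) and so are not separate measurements.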

How the data were processed

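Small RNA of 14 to 40 nucleotides from liver was read on Illumina HiSeq instruments (50 bp, single end), as the labels' protocols state. Sscrofa 10.2 is the build named in the submitters' processing notes. Which aligner, counter and miRNA release the authors used is not given in the sources used here. Per mature miRNA and precursor, the deposited files hold expected counts (75.7% to 78.8% whole) and RPM, per the file headers; the deposited RPM were not used. The design assumed counts, and the files hold expected counts, so values were summed per name over precursors and rounded. 6 names that repeat another name's reads were left out, leaving 405 names, 317 with a count, and 208 at a mean of at least 10 plain CPM. Of these, 65 hold shared reads (over 0.05 from whole). TMM factors (edgeR 4.0.16, R 4.3.3) were 1.20, 0.772 and 1.08 for Enshi black, Large White and wild boar. Ratios have exact conditional-binomial 95% intervals from scipy 1.17.1, which cover counting error only, since each breed has 1 library. Reads carry no molecular identifiers, so copies of 1 molecule cannot be told apart. The computation was tested on simulated data. No test between breeds was made.

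Named miRNAs were the members with their other arms, relatives and neighbours, the 10 most abundant in Enshi black, those at either edge of the threshold, up to 3 per list by abundance, and the precursors with the 5 widest arm gaps. The 14 lists, the markers and the rule were chosen with earlier results of these data known; same-number relatives, neighbours, ratios to hepatocyte markers and a few further list entries were added after seeing the values. Neighbours come from RefSeq's annotation of Sscrofa11.1, which named 307 of 382 precursors and 8 of the members' 11 on placed chromosomes. Mature sequences were not used here.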

Additional observations from a re-analysis of the deposited data

How the results depend on the processing

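The count of miRNAs higher in Enshi black than in both others was 5. It was 19 on library totals, 9 on totals without miR-122, 2 at a mean CPM of at least 100, 1 at 2-fold, 0 at 4-fold, and 3 without miRNAs holding shared reads, which removes miR-146b and miR-10a-5p. The count lower than both was 5, and 3 on library totals, 10 with no expression minimum, 3 at a mean CPM of at least 100, 3 at 2-fold and 0 at 4-fold. All 5 higher members remained under each other scaling, and 4, 3 and 4 of the 5 lower ones with DESeq2 1.42.0 size factors, library totals and totals without miR-122. Thinning each library to the smallest total kept all 10. Counting each name and precursor separately also kept all 10. It gave 6 higher entries with no further miRNA, as miR-363 has 2 precursors. The lower entries were 7, gaining miR-32 and the hepatocyte marker miR-885-5p. For Large White outside both, the 35 higher and 19 lower became 7 and 75 on library totals, and 11 and 65 where the total left out miR-122. TMM takes most miRNAs as equal, and library totals take total miRNA as equal; which holds here was not tested. With at least 1 count as detection, 3 miRNAs were found in Enshi black alone and 2 in both others alone. Without miR-122, the 10 most abundant miRNAs took 52.0% of the Enshi black, 61.5% of the Large White and 53.7% of the wild boar counts. No precursor passed the arm rule at 1000 counts either. miR-184, miR-628 and miR-6782-3p had under 100 counts in at least 1 library, and their intervals are wide. No paired analysis was possible because each breed has 1 library.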
